A study of Mus musculus with 335 samples.

Results

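Lung metastases were compared with primary mammary tumours of the same MMTV-PyMT mice of strain FVB. The libraries were found by the strain, driver and tissue in their labels, and the tissues were paired by the mouse number in the titles. Of the 335 libraries of the series, 40 belonged to this comparison, 22 of them from metastases of 12 mice and 18 from tumours of 14 mice. All 12 mice with a metastasis also had a tumour, and these 12 pairs used 37 libraries. Separate nodules were sequenced from 8 of the mice, and more than 1 tumour library from 4. The mice carried polyoma middle T antigen under the mouse mammary tumour virus promoter, which drives it in mammary epithelium, and arose as a genetically engineered model rather than by injection of cells. They were untreated, and their tissue was snap frozen. No age was given in the labels used here. Lung was available as 4 healthy samples of wild-type FVB mice without the transgene and 5 samples of lung next to tumour from MMTV-PyMT FVB mice, all from other animals than the pairs.

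Polyoma middle T is a membrane protein that recruits Src kinases, PI3 kinase and Shc, and so drives growth of the luminal mammary epithelium without a further engineered lesion. The tumours keep luminal keratins and, to varying degrees, milk genes, and they spread to the lung through the blood. A nodule cut from lung holds tumour cells, the stroma and immune cells that moved in, and whatever alveolar epithelium and capillary bed it surrounds or was cut with. Because bulk RNA was measured, fewer cells of a type and less RNA per cell cannot be told apart.

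Some labels need care. The metastasis titled mouse9716 has another mouse number in its column name, and its values stood apart from all other metastases, so counts are given with and without that mouse. Single genes are given without it unless all 12 pairs are named. Of 57 genes called without it and followed through all alternatives, 49 were also called with it, and those among the 8 others that are described below are named as such. Metastases titled mouse974CH and mouse974 were joined as 1 mouse, although only a tumour titled mouse974 was present. The tumour titled mouse9742 carried MOLF as its strain entry. Tumours of mouse978 and mouse947CH had no metastasis and entered an alternative only. Library codes beginning with KS were present in both tissues of 8 mice and codes beginning with RNA in both tissues of the other 4. All healthy lungs carried KS codes and all lungs next to tumour RNA codes, so the kind of lung cannot be told apart from the code. The 2 mouse974CH metastases carried RNA codes beside KS codes in other libraries of that mouse, and mouse974, mouse9715 and mouse9716 each had 1 further tumour library with a code of neither kind, so these 5 libraries were in no fit within a code. Values are RPKM, reads per kilobase of a gene in proportion to the reads of its library. The deepest of the 40 libraries had 4.13 times the depth of the shallowest, and metastases (median 3.07 times the shallowest) and tumours (median 3.13 times) were sequenced to similar depth. The smallest step between low values of the median gene was 0.0207 RPKM in the shallowest library, so a value of 1 RPKM rested on about 48 such steps there.

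Differences are metastasis minus tumour on the log2(RPKM + 1) scale, which understates the change of low genes, and genes with an adjusted p under 0.05 (limma with the mouse as a block, Benjamini-Hochberg over all genes tested) were called. Without mouse9716, 160 of 11088 genes (1.44%) were higher in metastases and 64 (0.577%) lower, 2.02% in either direction. With all 12 pairs, 173 of 11105 genes (1.56%) were higher and 87 (0.783%) lower, 2.34% in either direction. At such shares a short gene list is likely to hold few calls or none, so low counts in the lists below say little by themselves. In all, 192 genes were called in both fits. Rises were larger than falls: the median rise of the called genes was 1.12 and the median fall -0.41 without mouse9716, where 93 genes rose and 7 fell by 2-fold or more. The counts moved with single mice. Without mouse9716, leaving out mouse974 as well gave 103 higher and 23 lower, leaving out mouse977CH gave 105 and 16, and leaving out mouse9742 gave 161 and 98. Leaving out the mouse974CH libraries instead brought them to 80 and 21. Rescaling the libraries by median ratios left 173 higher but 27 lower, so the share of higher genes among the called went from 71.4% to 86.5%.

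Most of what was higher in metastases was high in lung. Of the 160 genes, 150 (93.8%) had a healthy lung level 2-fold or more above that of tumours, against 12% of all genes tested. Of the 64 lower genes, 20 (31.2%) were 2-fold or more lower in healthy lung, against 15.5% of all genes tested. The share of lung RNA in each nodule was estimated from lung epithelial genes relative to healthy lung. It was 8.71% ± 6.26 (SD, n = 11 mice), with a lowest value of 3.11%, a median of 6.9% and a highest of 22%. The 3 nodules of mouse9470 were alike, at 25.1%, 22.6% and 18.5%, and mouse956CH had 18.8%. Both mouse974CH nodules, at 11.4% and 16.3%, were above the 1.27% of the nodule titled mouse974. The former carried RNA codes and the latter a KS code, so title and code cannot be told apart there. Apart from mouse9716, KS libraries lay between 1.27% and 9.81% and RNA libraries between 4.28% and 25.1%. The estimate for mouse9716 reached its upper bound of 95%.

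**Figure D1:**
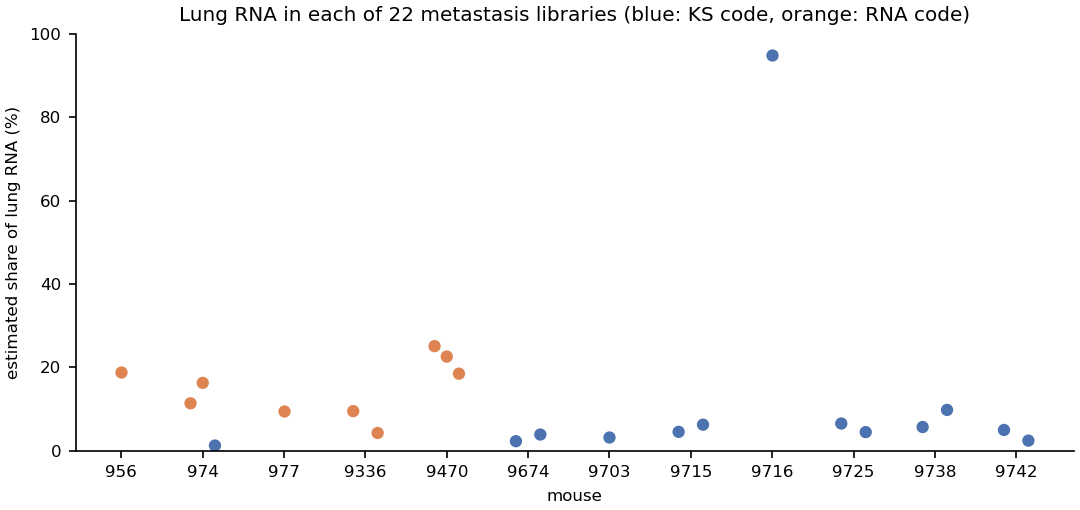
Estimated share of lung RNA (percent, y axis) in each of the 22 metastasis libraries, by mouse (x axis); each point is 1 nodule, blue for KS codes and orange for RNA codes. The library of mouse9716 sits at the bound of 95%, and all others lie at or under 25.1%.

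Surfactant genes of alveolar type 2 cells, the cells that make and recycle surfactant, gave the widest gaps. Of 11 type 2 markers tested, 10 rose and none fell, with a median difference of 3.67 beside -0.03 over all genes. Sftpa1, Sftpb, Cxcl15, Lamp3, Sfta2 and Nkx2-1 were under 1 RPKM in every tumour, so they passed the expression filter only through the metastases. The same held for Cldn18 and Clic5 of the type 1 list, Sec14l3 of the club cell list and Inmt of the lung mesenchyme list. Genes of this kind could be tested only if they rose, so counts of rises in the lung lists partly follow from the filter. Sftpc, the surfactant protein restricted to type 2 cells, had a lowest, median and highest RPKM of 0.0529, 0.203 and 4.11 in the tumours and of 288, 1136 and 4664 in the metastases of the 11 mice. The groups did not overlap, and every metastasis stayed below the healthy lung mean of 11210 ± 2300 (SD, n = 4). The difference was 9.27 ± 0.30 (SE), adjusted p = 3.05e-09, and 9.69 with all 12 pairs. Sftpb, which organises surfactant membranes, ranged from 0 to 0.3 in tumours and from 41.4 to 322 in metastases, a difference of 6.56 ± 0.24 (7.08 with all 12). Nkx2-1, the transcription factor of lung epithelium, ranged from 0.0597 to 0.366 in tumours and from 1.66 to 9.2 in metastases, beside 48.2 in healthy lung.

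The other lung epithelia moved in the same direction. Of 6 type 1 markers tested, the flat cells of gas exchange, 5 rose (median 3.16), and of 4 club cell markers 3 rose (median 2.77). Ager, the receptor abundant on type 1 cells, went from a median of 0.692 RPKM in tumours (0.142 to 1.26) to 40.9 in metastases (15.6 to 114), a difference of 4.59 ± 0.24 (4.82 with all 12). Its tumour and metastasis ranges were apart. Scgb1a1, the secretory protein of club cells, varied far more, with a lowest, median and highest of 0, 0.0604 and 11.5 in tumours and of 14.3, 59.4 and 10590 in metastases. Its top value belonged to mouse9470, whose nodules gave 15620, 10520 and 5643 RPKM, whereas the pair of nodules of mouse9336 gave 652.6 and 3.723. Ciliated cell markers were not called in any of the 3 tested (median 0.26). Foxj1, the regulator of motile cilia, was too low for the test, but reached 17, 16.2 and 11.3 RPKM in the nodules of mouse9470 and 7.94 in the first mouse974CH nodule, beside 19.9 in healthy lung.

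**Figure D2:**
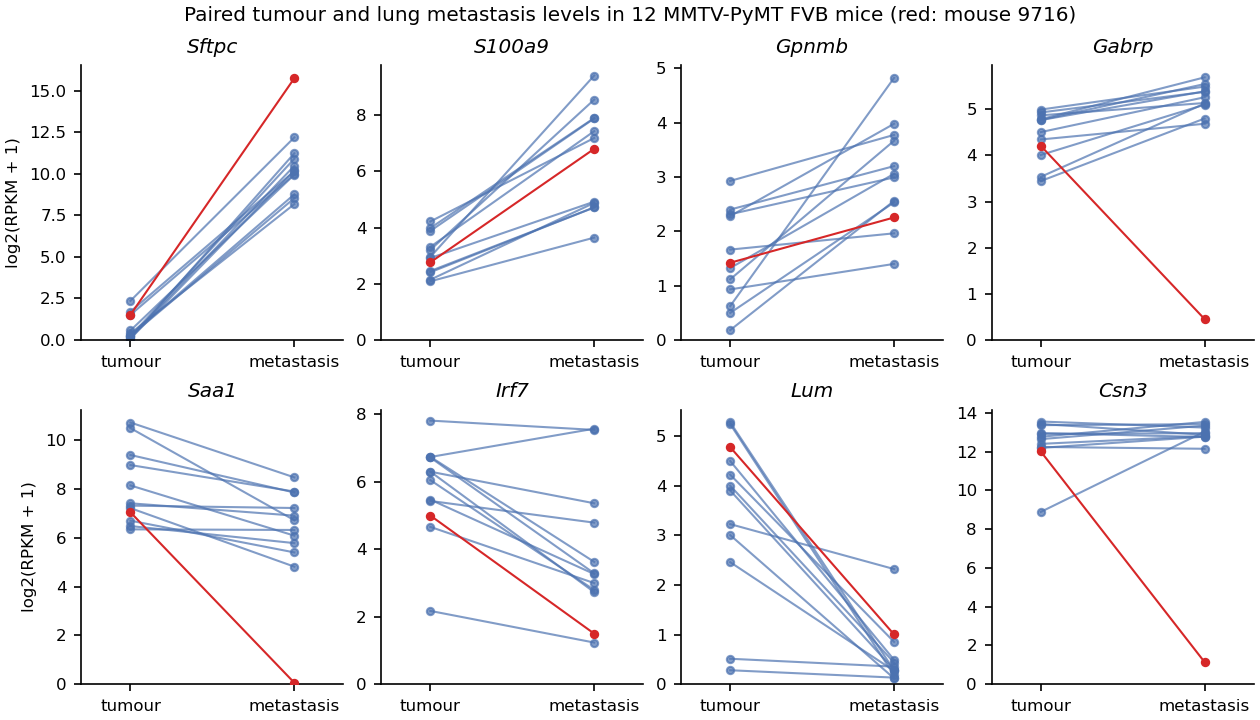
RPKM of 8 genes as log2(RPKM + 1) (y axis) in the primary tumour and the lung metastasis (x axis) of 12 mice; a line joins the tissues of 1 mouse, and red marks mouse9716. Sftpc rises and Saa1 falls in every pair, while Csn3 stays high in both tissues except in the metastasis of mouse9716.

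Stroma and vessels of the lung were next in size. Inmt, a methyltransferase of lung fibroblasts, rose by 4.04 ± 0.35 (4.19 with all 12 pairs), from 0 to 0.261 RPKM in tumours to 1.87 to 122 in metastases, and was 1 of the 2 lung mesenchyme genes called of 4 tested. Calcrl, the receptor of adrenomedullin in capillaries, had a lowest, median and highest of 0.988, 2.05 and 3.18 in tumours and of 5.34, 13.7 and 40.6 in metastases, with no overlap, and a difference of 2.14 ± 0.29 (2.23 with all 12). Of 6 lung capillary markers tested 3 rose (median 1.42). Of 13 general endothelial markers, 4 rose without mouse9716 (Ramp2, Cldn5, Egfl7 and Esam, median 0.95), and 9 rose with it. The calls for Egfl7 and Esam were lost in 5 and 8 of 11 fits that left out a further mouse. Pecam1 and Cdh5, the adhesion molecules that define endothelium, were at 1.04 (adjusted p = 0.0722) and 0.97 (adjusted p = 0.0802) without mouse9716 and were called with it (adjusted p = 0.0411 and 0.0459). The summed endothelial markers ranged from 16 to 50.8 RPKM in tumours, from 39.3 to 273 in metastases and from 1352 to 1641 in healthy lung. With the healthy lung share removed, Calcrl was at -0.45 (adjusted p = 0.534), Egfl7 at -2.20 (adjusted p = 1.7e-06) and Esam at -1.30 (adjusted p = 0.000481).

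Neutrophil and macrophage lists held few calls, beside 2.02% of all genes called without mouse9716. The neutrophil granule gene S100a9, a subunit of calprotectin, had a lowest, median and highest of 3.25, 6.76 and 17.6 RPKM in tumours and of 11.5, 145 and 682 in metastases. It was higher in the metastasis of all 11 mice, and only the metastasis of mouse9674, at 11.5, lay within the range of the tumours. The difference was 3.29 ± 0.41, adjusted p = 0.001 (3.37 with all 12 pairs), and stayed at 3.12 with the healthy lung share removed (adjusted p = 0.00684). Retnlg, a resistin-like protein of neutrophils, went from 0, 0.477 and 1.82 to 1.27, 22 and 61.9, a difference of 2.76 ± 0.45 (2.83 with all 12). Both genes were also present in healthy lung, at 139 and 12.8 RPKM. The receptors Cxcr2 and Csf3r, through which neutrophils respond to chemokines and to G-CSF, were at 1.11 (adjusted p = 0.0697) and 1.09 (adjusted p = 0.113). Of 6 neutrophil markers tested 2 rose (median 1.1) and 3 with all 12 pairs, and the list's median was above 0 in all 11 mice, from 0.25 in mouse9742 to 3.62 in mouse9470. Within the codes, the S100a9 difference was 2.27 over 7 KS pairs (adjusted p = 0.0105) and 4.56 over 4 RNA pairs (adjusted p = 0.127). The nodules of mouse974 were uneven, at 265.6 and 230.5 RPKM for mouse974CH and 19.51 for the nodule titled mouse974. These nodules also differed in code, RNA for mouse974CH and KS for mouse974, which cannot be told apart from the title.

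Of 15 macrophage genes tested, 1 was called (median -0.07, and 0.04 after median-ratio rescaling). That gene was Gpnmb, a glycoprotein of lipid-laden macrophages that tumour cells can also make, with 0.133, 1.5 and 6.61 RPKM in tumours and 1.64, 7.33 and 27.3 in metastases. It was higher in all 11 metastases, and was at 3.42 in healthy lung and at 9.41 in lung next to tumour. The call (1.49 ± 0.33, adjusted p = 0.0402) was lost in 7 of 11 fits that left out a further mouse, with adjusted p from 0.0292 to 0.0859. Of 3 alveolar macrophage genes tested 1 rose without mouse9716, Ear2, an eosinophil-type ribonuclease (3.05 ± 0.32). Of the others, Atp6v0d2, a proton pump subunit, was at 1.39 (adjusted p = 0.0768, and 0.0435 with all 12) and the keratin Krt79 at -0.52 (adjusted p = 0.412), lower in 7 of 11 mice. Too low for the test, Marco, a scavenger receptor, reached at most 0.0403 RPKM in tumours and 1.31 in metastases. Markers of T, NK, B and mast cells were all under the expression filter.

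Fibroblast matrix genes had mostly negative differences and few calls. Of 22 tested without mouse9716, 6 were positive and 1, Thy1, a surface glycoprotein of fibroblasts, fell (median -0.82), and with 12 pairs 3 of 23 fell. Thy1 had 1.64, 4.33 and 10.8 RPKM in tumours and 0.376, 1.03 and 8.76 in metastases, and was lower in 10 of 11 mice (-1.18 ± 0.26, adjusted p = 0.0399). Its call was lost in 9 of 11 fits without a further mouse. Lum, a small proteoglycan of collagen fibrils, had the steepest fall, with 0.215, 14 and 37.9 RPKM in tumours and 0.0843, 0.224 and 4 in metastases, and was lower in each of 11 mice. It missed the filter in the fit without mouse9716 and, in the fit of all 12 pairs, passed it chiefly through its tumour values, with a difference of -2.92 ± 0.42 (adjusted p = 0.0024). Col1a1, the main chain of type I collagen, was at -1.43 (adjusted p = 0.078) without mouse9716 and at -1.57 (adjusted p = 0.0443) with it. The direction was not shared by all mice, since the list's median lay below 0 in 8 of 11, from -1.93 in mouse9715 to 1.38 in mouse956CH.

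Another group of genes was higher in metastases while healthy lung was not 2-fold above tumours. Gabrp, a GABA receptor subunit of mammary epithelium, rose by 0.73 ± 0.10 (adjusted p = 0.00242), with 9.89, 26.2 and 30.9 RPKM in tumours and 24.8, 37.4 and 50.8 in metastases. It was higher in 11 of 11 mice, and its call did not hold with mouse9716, whose metastasis had 0.367 (0.36, adjusted p = 0.606). Elovl1, which elongates very long fatty acids, rose by 0.47 ± 0.07 in 11 of 11 mice, and was not called with mouse9716 (0.71, adjusted p = 0.118), whose metastasis had 435 RPKM. Lung next to tumour was more than 2-fold above tumours for both genes, with means of 46.1 against 22.2 RPKM for Gabrp and of 110 against 41.1 for Elovl1. Smaller rises were seen for Tmem173, the innate DNA sensor adaptor STING (0.54), for Orai1, a calcium channel (0.44), and for Cnn3, an actin-binding calponin (0.35). These 3 were higher in 10 of 11 mice each, but their calls were lost in 10, 9 and 10 of 11 fits without a further mouse. With all 12 pairs Orai1 was called (adjusted p = 0.024), and Tmem173 (adjusted p = 0.059) and Cnn3 (adjusted p = 0.158) were not. When both the healthy and the adjacent lung share were removed in turn, 16 of the 160 genes were called each time, Gabrp, Elovl1, S100a9 and Retnlg among them. The surfactant genes Sftpb, Sftpc and Sftpd were in that set too, which the method favours, because the share was a median over lung epithelial genes and genes above that median keep a remainder. Eln, elastin, was in it as well and was chosen for mention after its values were seen. Eln had 0.656, 9.36 and 22.5 RPKM in tumours, 30.9, 42.9 and 94.4 in metastases and 28.6 in healthy lung, with no overlap between tumours and metastases (2.40 ± 0.31). Itih4, a secreted protease inhibitor chosen in the same way, had 0.0788, 0.27 and 0.562 in tumours, 1.8, 4.84 and 13.3 in metastases and 5.65 in healthy lung (2.17 ± 0.21). Itih4 was under 1 RPKM in every tumour, so it passed the expression filter only through the metastases and could be tested only if it rose. Mgp, an inhibitor of calcification, Col4a1, a basement membrane collagen, and Muc1, a surface mucin of luminal and type 2 epithelium, were in the set too, at 2.44, 0.93 and 1.07. Mean RPKM of healthy lung was 1307 for Mgp, 55.5 for Col4a1 and 59 for Muc1. The highest tumours had 147, 23.2 and 14.1, so these 3 genes were outside the group named first in this paragraph.

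The named falls included acute-phase, junction and lipid genes. Saa1, serum amyloid A, had 80.3, 169 and 1689 RPKM in tumours and 27.2, 104 and 355 in metastases. It was lower in the metastasis of every mouse although the ranges overlapped, and fell by 1.65 on the log2 scale (SE 0.28, adjusted p = 0.0101, and -2.09, adjusted p = 0.0356, with all 12 pairs). Healthy lung had 0.114. Saa2 fell as well (-1.25, adjusted p = 0.0334), though not with mouse9716 (adjusted p = 0.0768), and because the 2 genes are near copies, reads may have been split between them. The call for Saa1 held in all 11 fits without a further mouse, but not without the mouse974CH libraries (adjusted p = 0.105). Gjb2, the gap junction protein connexin 26, fell by 1.16 (adjusted p = 0.0398). Srebf1, which switches on fatty acid synthesis, fell by 0.91 (adjusted p = 0.0399), with 82.4, 140 and 247 RPKM in tumours and 37.1, 88.5 and 161 in metastases, and was the 1 gene called of 9 in its list (median -0.22). Rescaling moved it to -0.81 (adjusted p = 0.0839). The desaturase Scd3 fell by 0.71 (adjusted p = 0.0389), and Phyhd1, a dioxygenase of uncertain role, by 0.66 in 11 of 11 mice (adjusted p = 0.00518). Fos, an immediate early transcription factor, fell by 0.42 (adjusted p = 0.0452). Over the 11 fits without a further mouse, the call for Phyhd1 held in all, while those for Saa2, Gjb2, Srebf1, Scd3 and Fos were lost in 7, 8, 10, 8 and 10. All of these but Saa2 were called with all 12 pairs.

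Inflammation, antigen presentation and oxidant defence gave single calls or none, beside 2.02% of all genes called without mouse9716. Icam1, the adhesion molecule on endothelium and type 1 cells to which leukocytes bind, had 1.25, 1.87 and 6.3 RPKM in tumours and 5.52, 11.6 and 33.6 in metastases, and was higher in all 11 mice (2.05 ± 0.25, adjusted p = 0.000909). Healthy lung held it at 117, and with the healthy lung share removed the difference was 0.71 (adjusted p = 0.15). It was the 1 gene called of 6 in the inflammation list, and Il1b, a macrophage and neutrophil cytokine, was at 0.95 (adjusted p = 0.0874) without mouse9716 and 1.02 (adjusted p = 0.0493) with it. The class II MHC list had 0 calls of 5 (median 1.04), with Cd74, the invariant chain, at 1.19 ± 0.38 (adjusted p = 0.135) and 8 of 11 mice higher. Of 8 NRF2 targets 1 was called, Gclc, which begins glutathione synthesis (0.49 ± 0.09, adjusted p = 0.0141), in 11 of 11 mice. Gclc had a mean of 6.75 RPKM in tumours, 10.3 in metastases, 26.2 in healthy lung and 41.2 in lung next to tumour, and with the share of the latter removed its difference was 0.21 (adjusted p = 0.244). Hmox1, haem oxygenase, was at -1.06 (adjusted p = 0.0697). The hypoxia and fat cell lists held no call. The 19 hypoxia and glycolysis genes summed to 1922 to 4680 RPKM in the tumours, while single genes such as Adm and Fabp4 spread more widely. Adm, the peptide adrenomedullin, had 0.674, 7.73 and 78.3 RPKM in tumours and 1.14, 1.65 and 56.5 in metastases (-1.44 ± 0.48, adjusted p = 0.153). Fabp4, the fatty acid carrier of adipocytes and capillaries, had 2.05, 26.1 and 241 in tumours and 2, 5.21 and 27.2 in metastases (-1.83 ± 0.52, adjusted p = 0.0973).

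Luminal, milk, cell cycle, hypoxia and cholesterol lists gave no call, with or without mouse9716. Of all genes tested, 2.34% and 2.02% were called, so no call in lists this short is near that share. Of 13 luminal genes none was called (median -0.12), nor was any of 9 milk genes (0.29), 18 cell cycle genes (0.14), 19 hypoxia and glycolysis genes (-0.26) or 18 cholesterol synthesis genes (0.20). Csn3, kappa casein, had 473, 6982 and 12040 RPKM in tumours and 4541, 7943 and 11880 in metastases (0.48 ± 0.34, adjusted p = 0.512). Epcam, the epithelial adhesion molecule, had 242, 306 and 539 in tumours and 197, 327 and 354 in metastases. Top2a, the topoisomerase of dividing cells, was at 0.32 ± 0.23 (adjusted p = 0.531). All 18 cell cycle genes had positive differences without mouse9716 and 3 had with it, and the list's median was above 0 in 6 of 11 mice. Of 8 basal genes 1 was called, Mylk, the myosin light chain kinase of contractile cells (0.78, adjusted p = 0.0429), which healthy lung held at 17.9 RPKM. The call was lost in 10 of 11 fits without a further mouse and with all 12 pairs (adjusted p = 0.0509), where Tagln, an actin-binding protein of contractile cells, was the 1 basal gene called (0.93, adjusted p = 0.0448). Krt14, a basal keratin, was at 0.63 (adjusted p = 0.303).

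**Figure D3:**
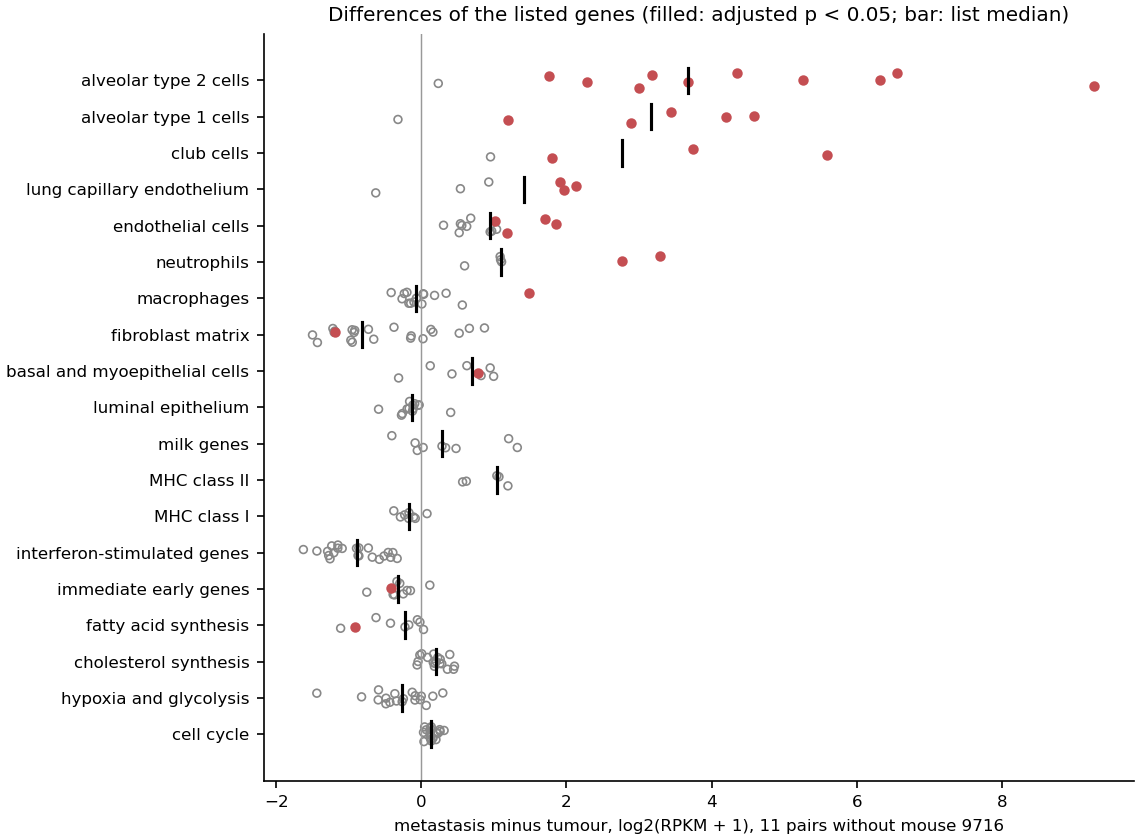
Differences between metastasis and tumour, log2(RPKM + 1), over 11 pairs (x axis) for the tested genes of 19 lists (y axis); each point is a gene, filled where the adjusted p is under 0.05, and the bar is the list's median. Alveolar and club cell genes lie far to the right, and the fibroblast and interferon lists lie mostly to the left with 1 and 0 filled points.

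Interferon-stimulated genes had negative differences throughout their list, with calls that depended on mouse9716. All 22 tested had negative differences (median -0.88 without mouse9716 beside -0.03 over all genes, and -0.99 with it), 0 were called without mouse9716 and 3 with it, Irf7, Mx2 and Ifi44. Irf7, the transcription factor that amplifies the interferon response, had 3.5, 77.5 and 223 RPKM in tumours and 1.35, 8.74 and 189 in metastases. It was lower in 10 of 11 mice (-1.62 ± 0.40, adjusted p = 0.0573, and -1.78, adjusted p = 0.0309, with all 12). The tissues of mouse974 went the other way, from 105.2 to 188.8 RPKM. The list's median was below 0 in 8 of 11 mice, from -2.5 in mouse9738 to 0.71 in mouse974. After median-ratio rescaling 0 of the 22 were positive (median -0.91). Within the codes Irf7 was at -0.998 over 7 KS pairs and -2.46 over 4 RNA pairs, neither called.

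Promoters of these genes are shown for the element through which interferon acts, because all 22 tested genes had negative differences. An interferon-stimulated response element was searched as 2 copies of GAAA separated by any 2 bases, on both strands, overlaps allowed, from 250 bases before to 50 after each start (RefSeq, GRCm38.p6). It was found in 943 of 27025 promoters (3.49%) and in 9 of the 16 listed genes with a promoter in the table (56.2%). Irf7 and Ifi44 had no match, and Mx2 was not in the table. Of the 9, the 3 with the smallest p are shown, chosen after the matches were seen. Isg15, a ubiquitin-like protein, lies on the minus strand at chr4:156200769-156201068, Rsad2, the antiviral enzyme viperin, on the minus strand at chr12:26456403-26456702, and Ifit1, which binds foreign RNA, on the plus strand at chr19:34640639-34640938. Capitals mark every match, and matches are a description of letters only.
Isg15: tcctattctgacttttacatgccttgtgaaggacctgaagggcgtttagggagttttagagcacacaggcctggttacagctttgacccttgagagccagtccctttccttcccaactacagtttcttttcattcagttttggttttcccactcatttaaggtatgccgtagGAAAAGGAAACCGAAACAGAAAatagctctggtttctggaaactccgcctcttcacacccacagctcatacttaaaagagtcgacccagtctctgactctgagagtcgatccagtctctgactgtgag
Rsad2: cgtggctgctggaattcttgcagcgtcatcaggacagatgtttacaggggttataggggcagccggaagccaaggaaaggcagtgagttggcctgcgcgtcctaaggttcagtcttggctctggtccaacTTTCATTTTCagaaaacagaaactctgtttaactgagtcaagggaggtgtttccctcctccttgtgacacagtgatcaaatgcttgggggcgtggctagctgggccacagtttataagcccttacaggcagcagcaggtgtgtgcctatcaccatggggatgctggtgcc
Ifit1: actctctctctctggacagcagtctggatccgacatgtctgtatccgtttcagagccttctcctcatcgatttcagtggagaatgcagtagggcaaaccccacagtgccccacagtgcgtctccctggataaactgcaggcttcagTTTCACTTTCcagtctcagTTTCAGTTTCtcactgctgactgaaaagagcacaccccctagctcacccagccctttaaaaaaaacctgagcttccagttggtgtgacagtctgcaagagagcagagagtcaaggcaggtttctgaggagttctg

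Isg15 had a difference of -1.28 ± 0.41 (adjusted p = 0.141), Rsad2 of -1.44 ± 0.43 (adjusted p = 0.117) and Ifit1 of -1.26 ± 0.38 (adjusted p = 0.113) without mouse9716, so none of the 3 was called. Isg15 was lower in 9 of 11 mice, and Rsad2 and Ifit1 in 8 each.

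Over the 11088 genes tested without mouse9716, the median SD of metastases on the log2 scale was 0.237 within a mouse (18 libraries of 8 mice) and 0.317 between 11 mice. That of tumours was 0.246 within a mouse (8 libraries of 4 mice, of differing codes in each) and 0.297 between 14 mice, unpaired ones included. The contrast was wide for Irf7, at 0.39 within and 2.01 between mice in metastases. For the club cell gene Scgb1a1 it was absent, at 2.78 and 2.66. S100a9 had 1.20 and 1.94.

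The metastasis of mouse9716 stood apart. Its summed type 2 markers reached 79270 RPKM, above the 480.3 to 6049 of the other metastases (sums averaged per mouse) and the 10850 to 16790 of healthy lung. Sftpc alone was at 55030 and Nkx2-1 at 73.3. Alveolar macrophage markers summed to 243.5, within the 65.02 to 257.2 of healthy lung. The sums of other lung cell types were below healthy lung: type 1 markers summed to 878.1 (healthy lung 1893 to 2683), club cell markers to 713.3 (37290 to 80240) and endothelial markers to 228.4 (1352 to 1641). Also below it were lung mesenchyme at 228.7 (1676 to 2120), lung capillary markers at 137.3 (1100 to 1284), ciliated cell markers at 20.38 (328.7 to 387.9) and mesothelial markers at 1.742 (59.18 to 170.2). Summed milk genes were at 48 RPKM, where the other metastases had 4661 to 21710 and healthy lung 48.2 to 127. The basal keratin Krt5 was at 0, Krt14 at 0.0129 and Gata3, the luminal mammary regulator, at 0.213, while no other metastasis library was below 0.154, 0.95 and 9.38. The luminal list as a whole summed to 862.2, above the 485.5 to 532.8 of healthy lung and below the 1154 to 4837 of the other metastases. Of its other members, Krt18 was at 154.2 (lowest other metastasis library 153.8), Elf5 at 29.91 (healthy lung 5.027 to 8.216) and Esr1 at 0.07114 (healthy lung 0.2143 to 0.6336). Epcam was at 105, between healthy lung (27.3) and the lowest other metastasis library (182). Class II MHC genes summed to 1689, above all other tissues here, and cell cycle genes to 91.2, beside 76.1 to 88.7 in healthy lung and 215.6 to 529.8 in the other metastases. Over 11516 genes its correlation with the mean tumour was 0.745, where the other metastases had 0.882 to 0.966, and with mean healthy lung 0.859, where they had 0.635 to 0.81. These are descriptions across genes of libraries with a shared pipeline.

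**Figure D4:**
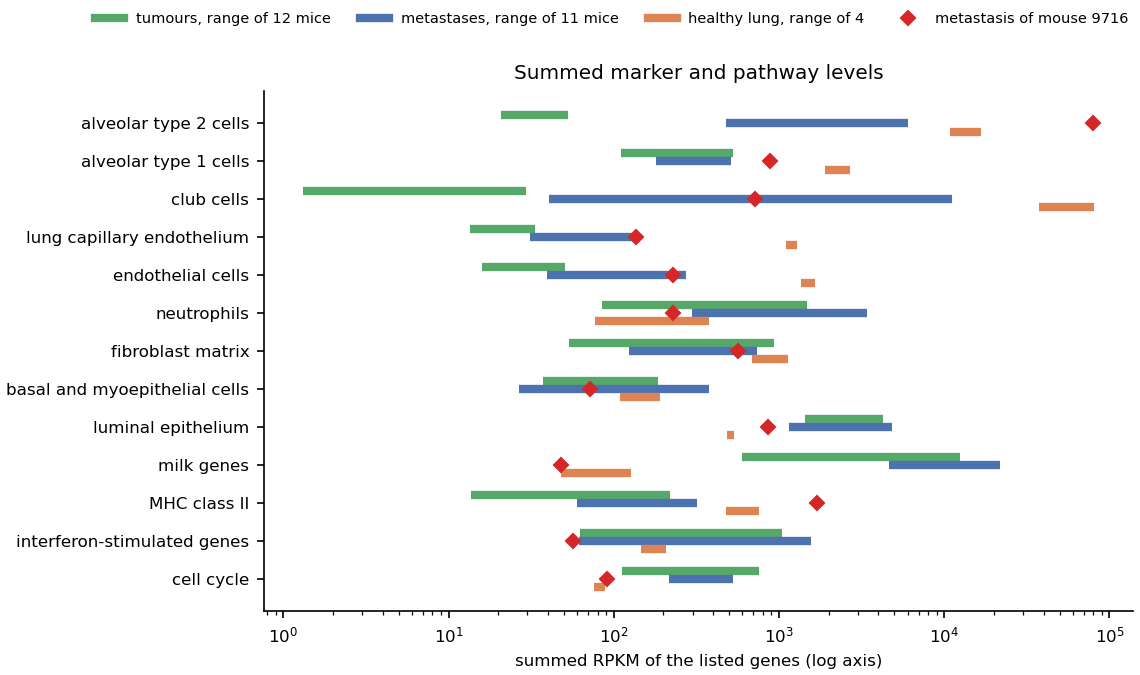
Summed RPKM on a log axis (x axis) of 13 gene lists (y axis); bars span 12 tumours, 11 metastases and 4 healthy lungs, and the red diamond is the metastasis of mouse9716. The diamond lies above all bars for type 2 cells and class II MHC, and just below the healthy lung bar for milk genes.

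Among 13300 genes at 1 RPKM or more in some metastasis, 912 were highest in that library of all 22 and also above all 4 healthy lungs, and 2883 were lowest in it. The following were named after their values were seen. The imprinted RNAs Rian and Meg3 and their neighbour Dlk1, a Notch-like ligand, were at 333.4, 193.7 and 68.15 RPKM, where no other metastasis passed 11.58, 2.603 and 0.3511 and healthy lung stayed under 3.0, 1.45 and 0.00599. Gkn2, a gastrokine, was at 17.45 beside at most 0.0339 in other metastases, and the receptor kinase Ros1 at 11.91 beside at most 0.253. What tissue this library holds was not tested.

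The difference between metastasis and tumour in FVB was tested against that in MMTV-PyMT mice of strains BL6 (5 pairs), BL10 (6), CAST (7) and MOLF (8), by the strain entry of the labels. Titles gave BL6N for 1 of the BL6 pairs and BL10J for 5 of the BL10 pairs, and 2 of the 8 MOLF tumours were placed by their tissue entry, against titles that called them lung metastases. With limma on differences per mouse, 0 of 12167 genes (0%) were called (965 at an unadjusted p under 0.05, 7.93%), and 0 of 12143 (0%) without mouse9716 (889, 7.32%). Without the filter on low values 1 gene, Psca, a surface antigen, was called of all genes, with a difference of 1.78 in MOLF and 0.05 in FVB. Of the 160 genes higher in FVB, 148 (92.5%) had positive differences in all 4 other strains, and of the 64 lower genes 54 (84.4%) had negative ones, beside 34.5% of all genes tested with 1 sign in common. Eln, at 2.28 in FVB with all 12 pairs, was at 0.30 in BL6, 0.39 in BL10, 1.40 in CAST and 1.93 in MOLF. FVB was above the mean of the others by 1.40 ± 0.33 without mouse9716 (adjusted p = 0.462). Scd3 differed the opposite way, by -0.97 (adjusted p = 0.462), as did the haem oxygenase Hmox1, by -1.08 (adjusted p = 0.462). Lum was lower in every strain, from -2.92 in FVB to -3.58 in BL6, and S100a9 was higher in every strain, from 3.31 in MOLF to 4.60 in BL10. Saa1, at -2.09 in FVB, was at -2.83 in BL6 and -1.30 in CAST, but at 0.74 in BL10 and 0.02 in MOLF. Its FVB difference from the others was -0.80 without mouse9716 (adjusted p = 0.738). Irf7 was at -1.78 in FVB and from -0.49 in BL6 to -0.92 in CAST in the others, a difference of -0.94 ± 0.41 without mouse9716 (adjusted p = 0.644).

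**Figure D5:**
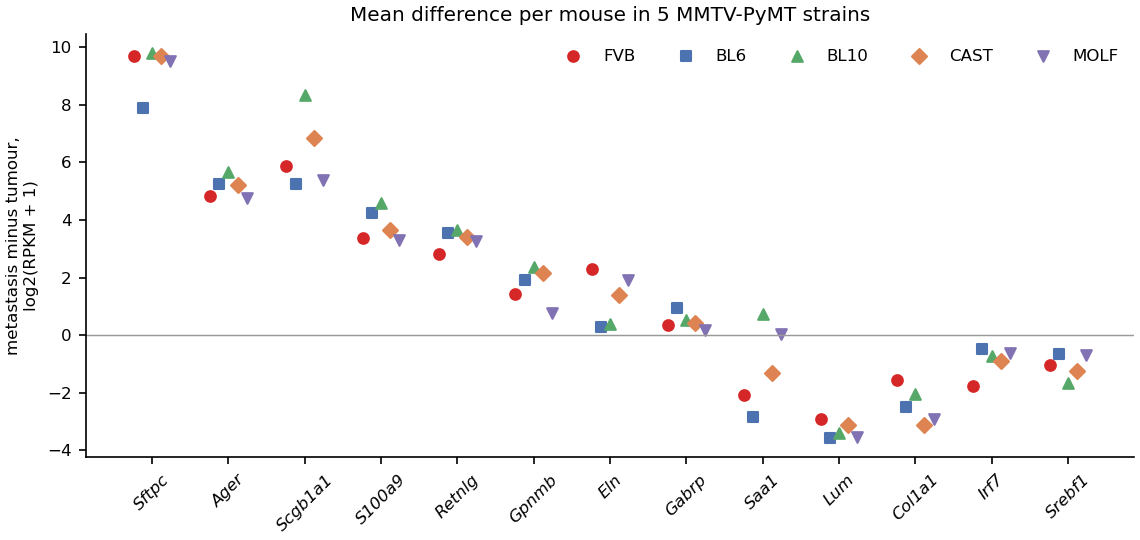
Mean difference between metastasis and tumour per mouse, log2(RPKM + 1) (y axis), of 13 genes (x axis) in 5 MMTV-PyMT strains, FVB in red with all 12 pairs. Sftpc and S100a9 are above 0 and Lum below 0 in all 5 strains, and Eln spreads from 0.30 in BL6 to 2.28 in FVB.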

How the data were processed

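RNA of snap-frozen tissue was sequenced on a HiSeq2500, per the labels' protocols. TopHat, DESeq2 and mm9 are named in the submitters' processing notes without versions, and how DESeq2 entered the values is not said. The authors deposited RPKM for all libraries in a single file. No counts were at hand, so no count test was the main result, and depth is relative, read from the steps between low values. RPKM were taken to log2(RPKM + 1), and libraries of 1 tissue of 1 mouse were averaged. Genes at 1 RPKM or more in as many profiles as there were pairs were fitted with limma 3.58.1 (R 4.3.3, data.table, version 1.17.8), trend and robust moderation, the mouse as a block, Benjamini-Hochberg over all genes tested. The strain test fitted differences per mouse on genes at 1 RPKM or more in at least 12 profiles. Pairs come from the mouse named in both titles. Same-mouse deviations correlated over 0.1 in 9 of 12 pairs (-0.0333 to 0.715), the own tumour was the best match for 5 of 12 metastases, and 0 pairs of libraries were identical. On simulated data with 11 pairs, limma recovered 92 of 100 genes changed by 1 and 99 of 100 changed by 2 (log2), with 9 false calls among 11143 genes. The simulated noise was independent between genes and drawn per library with the SD of profiles already averaged per mouse. It was therefore too small for mice with several libraries, and recovery in the data may be lower. Irf7, for example, was at -1.62 without mouse9716 and not called (adjusted p = 0.0573). Lung share was the median over lung epithelial genes of the level above the tumour mean relative to healthy lung, bounded at 95%. Its removal subtracted that share of mean lung and scaled up the remainder. Named genes were the 10 largest rises and falls among called genes in each fit (mean of at least 5 RPKM, the same direction in 10 of 12 or 9 of 11 pairs), the largest rises where healthy lung was not 2-fold above tumours, and up to 4 members of each list with the smallest adjusted p. Genes from the lung subtraction, from the library of mouse9716 and beside a list's count were named after their values were seen. The members and gene lists were chosen with earlier results of these data known. Alternatives changed the pseudocount, filter, block, scaling, averaging, libraries, codes, weights and lung share, and left out each mouse. Figures used Python 3.11.15, numpy 2.4.6, pandas 2.3.3 and matplotlib 3.10.9.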

Additional observations from a re-analysis of the deposited data

Results flagged for a closer look

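Of 88 genes followed, those reaching 1 RPKM in at least 1 of the 4 healthy lung samples were examined. Among these, 10 had 1 sample far from the other 3 by Dixon's gap test, which chance alone gives in about 1 in 20 groups. The same sample need not be behind each. The highest sample stood out for Inmt (1554 RPKM, the rest 1192 to 1233), Hpgd (400.1, the rest 276.6 to 290.6), Gjb2 (3.18, the rest 1.364 to 1.602), Scd2 (193.4, the rest 140.7 to 143.5), Mgp (2163, the rest 977.3 to 1108) and the casein Csn1s1 (11.91, the rest 0 to 0.06547). The lowest stood out for Cxcr2 (1.676, the rest 3.979 to 4.255), Csf3r (2.289, the rest 7.095 to 7.708), Top2a (0.9224, the rest 1.657 to 1.805) and Vim (181, the rest 290.9 to 311.8).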

How the results depend on the processing

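The call counts below are given as higher and lower, first with all 12 pairs and then without mouse9716, against 173 and 87, and 160 and 64. They were 352 and 166, and 390 and 137, with no filter on low values. Without the replicate block, which drops the pairing, they were 154 and 48, and 140 and 21, and with the tumours of mouse978 and mouse947CH added to that fit 40 lower without mouse9716. They were 174 and 28, and 173 and 27, after median-ratio rescaling. Lower genes were 41 and 35 with 1 library per tissue and mouse, and 415 and 270 with array weights. KS-coded libraries alone gave 13 and 0, and 29 and 2, and RNA-coded ones 12 and 0 both times. Removing the healthy lung share left 9 higher, and 24 and 119, and the adjacent one 4 and 19, and 17 and 35. Without the mouse974CH libraries they were 94 and 55, and 80 and 21, and without mouse9742 lower genes were 137 and 98. Leaving out each mouse gave 114 to 199 higher and 27 to 137 lower, and then 103 to 171 and 16 to 98. The strain test called 1 gene with no filter and 0 under its other alternatives. Of 2251 values of 88 genes followed with all 12 pairs, 1800 kept direction and side of the threshold, 373 lost the call, 43 gained it and 35 changed sign. The sign changes with a lung share removed come from fits that include mouse9716. Its library had 95% of mean lung subtracted and the remainder scaled up. Without that mouse, Cnn3 (either share) and Gclc (adjacent share) stayed positive, while Egfl7, Esam and Calcrl (healthy share) were negative too. Sign changes with the healthy lung share removed were Egfl7 (-2.28), Esam (-1.40), Calcrl (-0.56), Hpgd (-0.12), Rsu1 (-0.0465), Cnn3 (-0.17) and Krt7 (-0.21). With the adjacent share removed they were Fmo2 (-0.14), Ramp2 (-0.98), Egfl7 (-1.10), Esam (-0.0018), Calcrl (-0.0571), Rsu1 (-0.0412), Gclc (-0.0621), Cnn3 (-0.15) and Krt7 (-0.29). The others were genes not called with all 12 pairs: Krt14 (-0.18 at pseudocount 0.1, -0.0214 in KS libraries, -0.0373 without mouse9742, and -0.0954 to 0.63 over single mice left out), Top2a (-0.30 in RNA libraries, -0.0809 without mouse9742, and -0.0809 to 0.32 over single mice left out), Csn3 (1.08 in RNA libraries, 0.037 with array weights, and -0.88 to 0.48 over single mice left out), Csn1s1 (-0.0386 to 1.20 over single mice left out) and Gabrp (-0.0319 in KS libraries). The causes were not tested.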
